A study of Rattus norvegicus with 30 samples.

Results

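A set of 10 genes of the transforming growth factor beta (TGF-β) system was followed across healthy, injured and treated rat tendon. They were the ligands Tgfb1, Tgfb2 and Tgfb3, the receptors Tgfbr1, Tgfbr2 and Tgfbr3, the latent TGF-β binding proteins Ltbp1, Ltbp2 and Ltbp3, and Tgfbi, a matrix gene named for its induction by TGF-β. The 10 genes were chosen by name, with earlier results of these data known. All 10 were among the 13124 genes in the count table and among the 12558 genes that passed the expression filter. The RNA came from right plantaris tendons of male Sprague Dawley rats 3 months of age. In the injured rats the plantaris tendons of both hind limbs had been cut through and sutured at once.

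The control group held 3 tendons from rats that had no tenotomy surgery and no test compound. Whether they were gavaged with vehicle is not stated. Repaired tendons were taken at 7 days (7D) or 21 days (21D), and the rats had been gavaged 2 times a day with GSK2894631A, an inhibitor of hematopoietic prostaglandin D synthase, at 0, 2 or 6 mg/kg. The 7D groups held 5, 4 and 3 tendons at 0, 2 and 6 mg/kg, and the 21D groups held 5 tendons at each dose. Surgery, gavage and suture were shared by all repaired groups. Surgery and suture were absent from controls, and gavage may have been, so these cannot be told apart in comparisons with control. Whole pieces of tendon were sequenced, so fewer cells of a type and less RNA per cell cannot be told apart either.

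TGF-β ligands are made as inactive complexes, in which the cleaved propeptide stays wrapped around the growth factor, and latent TGF-β binding proteins tether such complexes to the extracellular matrix. Integrins and proteases release the ligand, which binds a pair of TGFBR2 and TGFBR1 kinases, and these phosphorylate SMAD2 and SMAD3. In tendon the pathway is known for its part in tenocyte formation, in mechanical signaling and in the collagen deposition of scar. TGFBR3, also called betaglycan, has no kinase and presents ligand, TGF-β2 in particular, to the signaling receptors.

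Promoter sequences are shown for the ligands that moved in opposite directions after repair, Tgfb1 and Tgfb2, and for Ltbp1 and Ltbp2, the members whose windows held the SMAD-binding core. Each run is the 250 bases upstream of the RefSeq transcription start in the GRCr8 assembly, 5′ to 3′ on the strand of the gene. These coordinates are of GRCr8, whereas the reads were mapped to rn6. Tgfb1 lay at chr1:90324062-90324311 on the plus strand, Tgfb2 at chr13:100792686-100792935 on the minus strand, Ltbp1 at chr6:26177302-26177551 on the minus strand, and Ltbp2 at chr6:110257299-110257548 on the minus strand. Capitals mark the SMAD-binding core CAGAC, read on either strand, and the cAMP response element TGACGTCA.
Tgfb1: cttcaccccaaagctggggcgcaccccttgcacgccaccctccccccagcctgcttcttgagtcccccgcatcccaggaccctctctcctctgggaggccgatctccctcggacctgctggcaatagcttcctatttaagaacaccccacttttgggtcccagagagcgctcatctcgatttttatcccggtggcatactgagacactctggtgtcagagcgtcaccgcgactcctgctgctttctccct
Tgfb2: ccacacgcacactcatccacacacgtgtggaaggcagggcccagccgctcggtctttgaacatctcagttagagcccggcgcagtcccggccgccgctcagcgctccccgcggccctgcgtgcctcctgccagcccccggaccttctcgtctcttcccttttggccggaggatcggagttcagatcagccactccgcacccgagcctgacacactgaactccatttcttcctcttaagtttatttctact
Ltbp1: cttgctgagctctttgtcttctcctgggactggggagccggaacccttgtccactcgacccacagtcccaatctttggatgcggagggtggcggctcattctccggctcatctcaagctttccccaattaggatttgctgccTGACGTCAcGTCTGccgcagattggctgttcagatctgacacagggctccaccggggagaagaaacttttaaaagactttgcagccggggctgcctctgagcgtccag
Ltbp2: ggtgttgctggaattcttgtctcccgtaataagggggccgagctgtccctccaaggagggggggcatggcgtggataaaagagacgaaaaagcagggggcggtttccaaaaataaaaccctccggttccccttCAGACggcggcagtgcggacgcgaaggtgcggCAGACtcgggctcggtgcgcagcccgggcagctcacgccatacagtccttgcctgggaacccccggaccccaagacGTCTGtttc

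Neither motif was found in these windows of Tgfb1 and Tgfb2. The Ltbp1 window held 1 TGACGTCA at -108 from the start, a motif in 1.59% of the 33469 rat promoters searched, and 1 CAGAC on the minus strand at -99. The Ltbp2 window held 3 CAGAC, at -117, -85 and, on the minus strand, -9. CAGAC was present in 42.9% of all promoters and in 2 of the 10 members. The GC box GGGCGG was present in 30.5% of all promoters and in 6 of the 10 members (Tgfbr1, Tgfbr2, Tgfbr3, Ltbp2, Ltbp3 and Tgfbi), while TATAAA (12.9%) and the AP-1 element TGANTCA (6.34%) were in none. All motifs were searched on both strands, and TGACGTCA overlapped no CAGAC in the members. A match describes the letters only.

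Library totals ran from 12405741 to 49909374 reads assigned to genes, which put 3 reads at 0.0562 to 0.245 CPM, the count of a gene scaled to a common, TMM-adjusted library size. The lowest count of any member in any tendon was 109 reads, for Ltbp2. Tendon markers (Scx, Mkx, Tnmd, Col1a1, Thbs4 and Fmod) were detected in every group, with summed levels of 8734 to 34924 CPM in control and 21542 to 53101 CPM in repaired tendons. These markers did not all move the same way. At 7D 0 mg/kg Col1a1 was called higher than control and Fmod lower, as given below. Fmod was at 772 to 3210 CPM in control and 369 to 676 CPM at 7D 0 mg/kg. The tendon sum is therefore not read here as an amount of tendon cells, nor as the course of each marker. Skeletal muscle transcripts differed far more: the 14 markers in the table took 17.0% to 24.7% of counts in control tendons, 0.165% to 1.13% at 7D 0 mg/kg, 0.0134% to 0.0159% at 7D 2 mg/kg, 0.0140% to 0.0209% at 7D 6 mg/kg, and 0.0671% to 8.57% at 21D. None of these 14 was at or below 3 counts throughout a group. The 8 macrophage markers (such as Cd68, Csf1r and C1qa) summed to 288 to 1166 CPM in control, 1073 to 2766 CPM at 7D and 630 to 1985 CPM at 21D. Mural markers summed to 5159 to 8719 CPM in control and 333 to 2360 CPM in repaired tendons, and T cell markers to 1.47 to 4.15 CPM and 7.09 to 52.5 CPM, without overlap. In control the mural sum was highest in the tendon with the most muscle (replicate 4, 24.7%). The same held among repaired tendons (21D 6 mg/kg replicate 2, 8.57%), so the mural sum is not read here as an amount of mural cells. Platelet markers (27.8 to 213 CPM in control, 142 to 933 CPM in repaired tendons) and the 4 endothelial markers in the table (133 to 517 and 207 to 638 CPM) overlapped. Control replicate 4 stood apart, with the most muscle (24.7%) and the lowest sums of tendon (8734 CPM) and macrophage markers (288 CPM), so calls that rest on it are given below without it. The part of these cell types in the results was not tested beyond the fits named below. Muscle shares did not overlap between control and repaired tendons, and those of 7D 2 and 6 mg/kg lay below all other groups. In comparisons across these gaps a fit with the muscle share as a covariate cannot tell muscle content from group. Calls kept or lost in that fit are given as its values only.

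After repair Tgfb1 rose and Tgfb2 fell in every group, and most other members rose. At 7D 0 mg/kg 7 members were upregulated and Tgfb2 alone was downregulated against control (FDR-adjusted p under 0.05), where 35.8% of all genes tested were higher and 35.6% lower. The median log2 fold change was 1.05 over the 10 members and 0.05 over all genes. The other repaired groups had 8 members higher at 7D 2 mg/kg (background 35.8%), 7 at 7D 6 mg/kg (34.1%), 7 at 21D 0 mg/kg (32.2%), 8 at 21D 2 mg/kg (33.8%) and 7 at 21D 6 mg/kg (30.8%), and Tgfb2 was the lower one each time (34%, 33.8%, 33.7%, 35.3% and 33.3% of all genes were lower). These 6 comparisons share the same 3 control tendons. Since the members were chosen with earlier results known, their counts beside those of all genes are descriptions only. Without control replicate 4 the counts of higher members were 5, 6, 4, 5, 5 and 5 in the same order of groups, and Tgfb2 stayed lower. In that fit 8314, 8145, 7961, 7426, 7910 and 7109 of 12559 genes were called in either direction. With the share of muscle marker counts of each library as a covariate the counts were 6, 2, 1, 5, 7 and 7, and Tgfb2 stayed lower. There 6134, 1722, 1854, 6434, 7114 and 6459 of the 12558 genes were called in either direction. The counts of 2 and 1 thus stand where calls over all genes were also fewest. The levels of Tgfb1, Tgfbr2, Ltbp3 and Tgfbi in all 27 repaired tendons lay above those of all 3 controls, which held for 18.6% of all genes, and Tgfb2 lay below in all 27, which held for 22.1%.

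**Figure D1:**
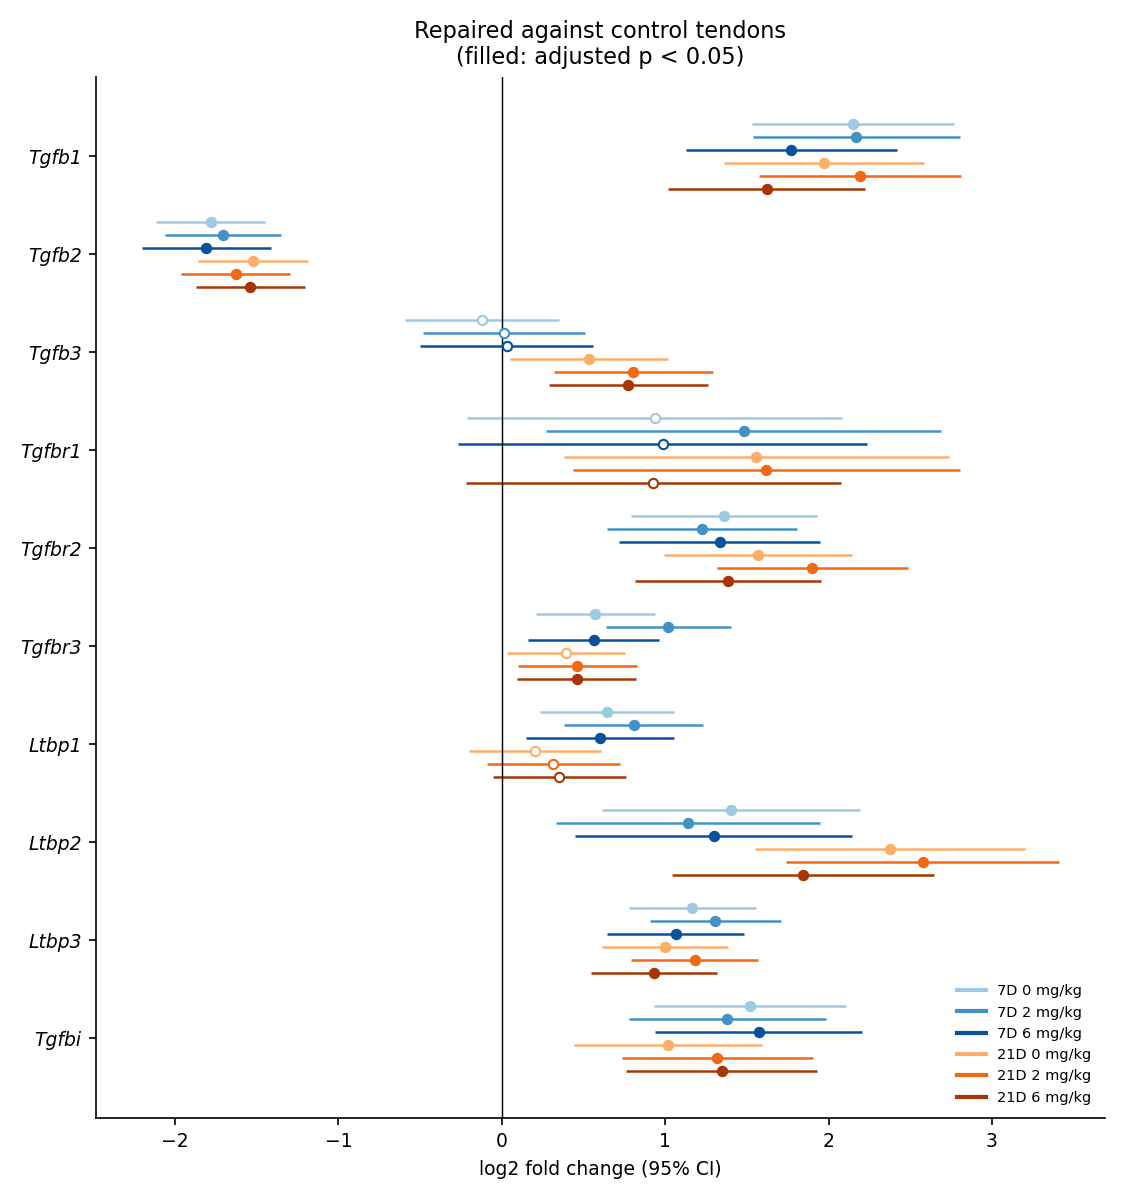
Log2 fold change of each member in the 6 repaired groups against control, with 95% confidence intervals. Filled points passed an FDR-adjusted p of 0.05 and open points did not. Tgfb2 lies between -1.81 and -1.52, Tgfb1 between 1.62 and 2.19.

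Tgfb1 (ENSRNOG00000020652, chromosome 1), the ligand made by platelets, macrophages and many other cells of wounds, was at 32.3, 37.1 and 21.4 CPM in the control tendons. At 7D 0 mg/kg the 5 tendons were at 125, 110, 155, 114 and 168 CPM, and at 21D 0 mg/kg they were at 86.2, 186, 108, 121 and 94.3 CPM. With GSK2894631A, levels were 131, 137, 211 and 66.6 CPM at 7D 2 mg/kg and 126, 85.4 and 99.1 CPM at 7D 6 mg/kg. No repaired tendon fell into the control range, and the lowest of the 27 was 66.6 CPM. The rise was 4.43-fold at 7D 0 mg/kg (log2 2.15, SE 0.300, adjusted p = 8.07e-07) and 3.93-fold at 21D 0 mg/kg (log2 1.97, adjusted p = 3.69e-06), and the other 4 groups were 3.08- to 4.57-fold higher. In the order of mean levels the only neighbours that differed by more than the larger of their SDs were 21D 6 mg/kg (93.3 ± 12.7 CPM, SD, n = 5) and control (30.3 ± 8.0 CPM, n = 3). With the muscle share of each library as a covariate, Tgfb1 was no longer called at 7D 2 mg/kg (log2 0.86, adjusted p = 0.256) or 7D 6 mg/kg (log2 0.48, adjusted p = 0.533), where muscle transcripts were lowest. It was still called in the other 4 groups (log2 1.21 to 1.76).

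Tgfb2 (ENSRNOG00000002418, chromosome 13), the ligand that depends most on betaglycan for receptor binding, moved the other way. Its control levels were 166, 176 and 112 CPM. They compare with 42.0, 52.7, 50.5, 35.1 and 39.9 CPM at 7D 0 mg/kg, and with 54.4, 56.0, 41.4, 52.2 and 59.3 CPM at 21D 0 mg/kg. The 27 repaired tendons ran from 35.1 to 69.1 CPM with a median of 47.9 CPM, so the highest of them stood well under the lowest control. Expression was 3.44-fold lower at 7D 0 mg/kg (log2 -1.78, SE 0.163, adjusted p = 1.32e-09) and 2.87-fold lower at 21D 0 mg/kg (log2 -1.52, adjusted p = 3.37e-08). The remaining groups were 2.91- to 3.50-fold lower, with adjusted p of 3.41e-08 or less. The fall was still called with the muscle share as a covariate in all 6 groups (log2 -1.70 to -1.47, highest adjusted p = 0.00576). Since the shares of control and repaired tendons did not overlap, that fit cannot tell muscle content from repair. Among repaired groups, means of 43.2 to 52.7 CPM differed between neighbours by less than their SDs.

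Tgfb3 (ENSRNOG00000009867, chromosome 6), the ligand often set against Tgfb1 in studies of scarring, was called against control at 21D and not at 7D. Control tendons were at 168, 130 and 98.6 CPM and the 7D 0 mg/kg tendons at 88.9, 141, 134, 147 and 96.2 CPM. Those at 88.9 and 96.2 CPM lay below the control range and the others inside it. At 21D 0 mg/kg levels were 227, 116, 258, 182 and 174 CPM, with replicate 2 the only one inside the 7D range. The 7D groups did not pass the test against control (log2 -0.12, 0.01 and 0.03 at 0, 2 and 6 mg/kg, adjusted p = 0.641, 0.965 and 0.923). The 95% intervals ran from -0.59 to 0.56. At 21D Tgfb3 was 1.45-fold higher than control at 0 mg/kg (adjusted p = 0.0478), 1.74-fold at 2 mg/kg (adjusted p = 0.00414) and 1.71-fold at 6 mg/kg (adjusted p = 0.00619). All 3 calls were lost without control replicate 4 (log2 0.32, 0.57 and 0.56, adjusted p = 0.299, 0.0614 and 0.0734). The call at 0 mg/kg was also lost without control replicate 3 (log2 0.55) or without 21D 0 mg/kg replicate 1 (0.46), replicate 3 (0.44) or replicate 4 (0.55). It was lost too with RLE size factors (0.51, adjusted p = 0.0573), with the muscle share as a covariate (0.61, adjusted p = 0.0615), with the replicate block (adjusted p = 0.0609) and with only those 2 groups in the fit (adjusted p = 0.132).

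**Figure D2:**
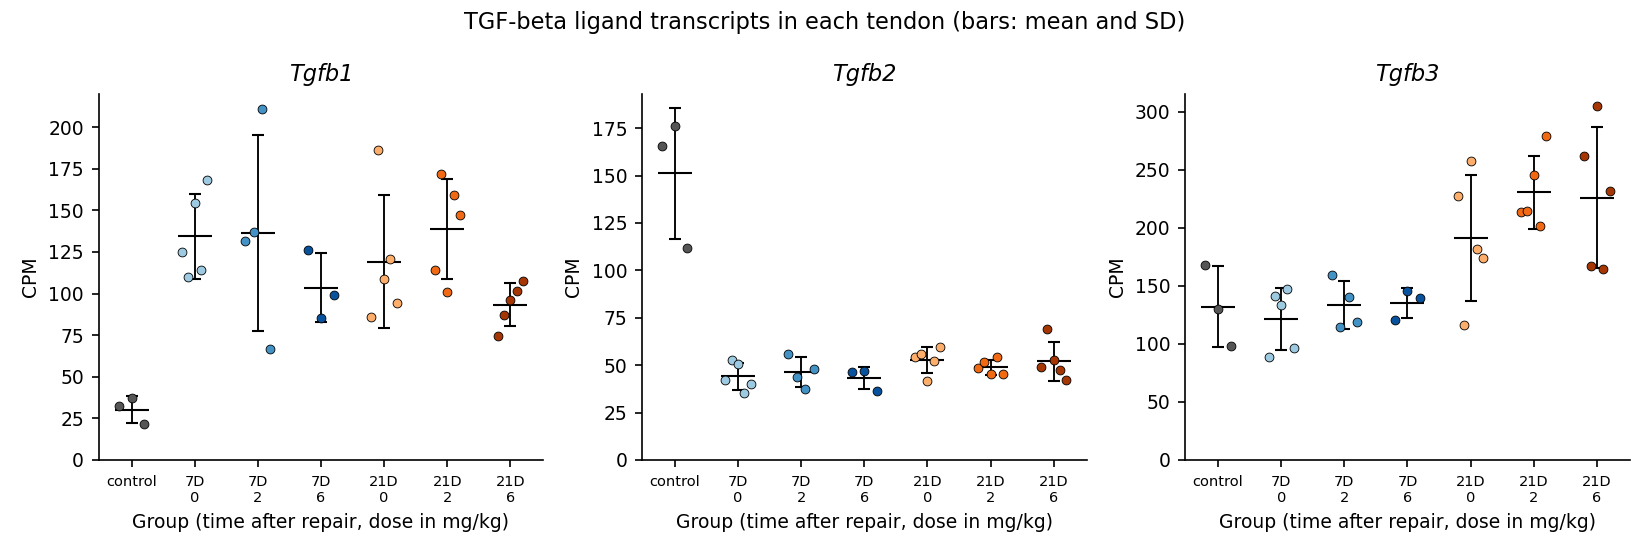
CPM of Tgfb1, Tgfb2 and Tgfb3 in each tendon (points), with the mean and SD of each of the 7 groups. Tgfb1 is lowest and Tgfb2 highest in the 3 control tendons, while Tgfb3 overlaps control at 7D and reaches 305 CPM at 21D.

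The balance between ligands was read within each tendon, from the log2 ratio of the counts of both genes, which does not depend on library size. The control ratios of Tgfb2 to Tgfb1 were 2.36, 2.25 and 2.38, whereas all 27 repaired tendons lay between -2.48 and -0.34. Which ligand had more counts therefore switched between control and repaired tendons. The difference was -3.94 at 7D 0 mg/kg, a ratio 15.3-fold lower (exact permutation test, two-sided, p = 0.0179, the smallest that 5 against 3 tendons allow, adjusted p = 0.0459 over 18 ratio tests), and -3.46 at 21D 0 mg/kg (exact permutation test, p = 0.0179, adjusted p = 0.0459). Tgfb3 to Tgfb1 was lower at 7D 0 mg/kg by a log2 difference of -2.29 (exact permutation test, adjusted p = 0.0459) and did not pass at 21D 0 mg/kg (-1.44, adjusted p = 0.0804). Between 7D and 21D the same ratios differed by 0.47 and 0.84 and did not pass (exact permutation tests, adjusted p = 0.182 and 0.157). Genes differ in length, so the size of a ratio of counts is no ratio of transcripts, and its change between tendons is what was tested.

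**Figure D3:**
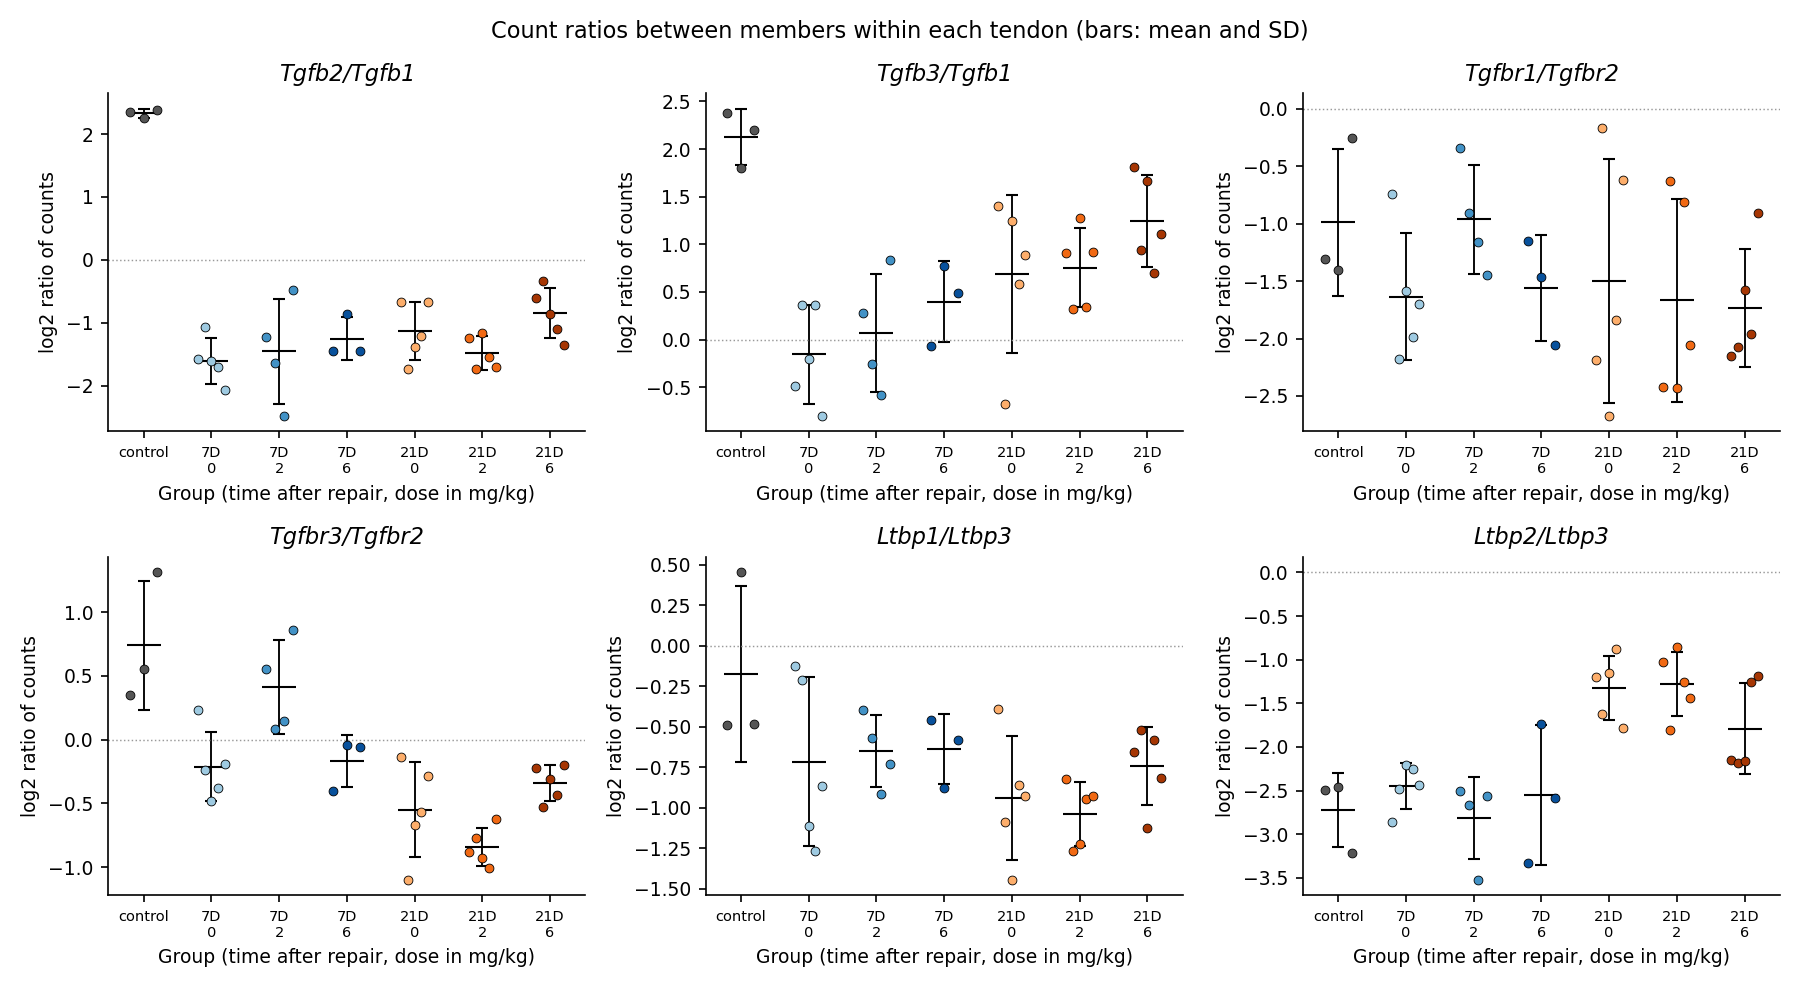
Log2 ratio of counts of member pairs within each tendon, by group, with means and SD. The 3 control tendons have Tgfb2 to Tgfb1 ratios of 2.25 to 2.38, above all 27 repaired tendons.

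Among the receptors Tgfbr2 (ENSRNOG00000013265, chromosome 8), the kinase that binds ligand first, rose in every repaired group. It was at 130, 114 and 35.7 CPM in control tendons and at 217.5, 272, 220, 224 and 261 CPM at 7D 0 mg/kg. The 5 tendons of 21D 0 mg/kg were at 200, 344, 350, 284 and 204 CPM. No repaired tendon was under 161 CPM, so the groups did not overlap. Tgfbr2 was 2.56-fold higher at 7D 0 mg/kg (log2 1.36, SE 0.276, adjusted p = 0.000113) and 2.97-fold higher at 21D 0 mg/kg (adjusted p = 3.13e-05). The highest mean was at 21D 2 mg/kg (348 ± 35.1 CPM, SD, n = 5, log2 1.90 against control). The call held without control replicate 4, the lowest control (log2 0.91 at 7D 0 mg/kg, adjusted p = 0.000693). It was lost at 7D 2 mg/kg (log2 0.40) and 7D 6 mg/kg (0.53) with the muscle share as a covariate.

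Tgfbr1 (ENSRNOG00000007036, chromosome 5), the kinase that phosphorylates SMAD2 and SMAD3, varied widely between tendons of a group. Control tendons were at 52.3, 43.1 and 29.98 CPM. The 21D 0 mg/kg tendons were at 43.8, 306, 54.9, 79.6 and 132 CPM, and those of 21D 2 mg/kg at 69.6, 216, 64.4, 221 and 71.7 CPM. At 21D a few tendons were thus several times higher than the rest of their group, and 21D 0 mg/kg replicate 1 lay within the control range. Tgfbr1 passed the test against control at 7D 2 mg/kg (log2 1.48, adjusted p = 0.0281), 21D 0 mg/kg (1.56, adjusted p = 0.0196) and 21D 2 mg/kg (1.62, adjusted p = 0.0151). The values for the other 3 groups were 0.94, 0.99 and 0.93 (adjusted p = 0.135, 0.153 and 0.148). The 21D 0 mg/kg call was lost without its replicate 2 (log2 0.89, adjusted p = 0.120), the tendon of that group with the lowest muscle share (0.0671%) and the highest macrophage sum (1985 CPM). All 3 calls were lost without control replicate 4 (log2 1.24, 1.32 and 1.36), and that at 7D 2 mg/kg also without control replicate 3 (1.52) or without 7D 2 mg/kg replicate 2 (1.30) or replicate 3 (1.40). None of the 3 was called with the muscle share as a covariate (log2 -1.40, 0.36 and 0.63, adjusted p = 0.283, 0.571 and 0.300), and at 7D 2 mg/kg the direction turned.

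Tgfbr3 (ENSRNOG00000002093, chromosome 14), betaglycan, was at 166, 167 and 88.6 CPM in control tendons and at 255, 231, 157, 172 and 229 CPM at 7D 0 mg/kg. At 7D 2 mg/kg the 4 tendons were at 293, 269, 285 and 293 CPM, above each of the other 26 tendons of the series. This separation was noticed after the values were seen, and how many of all genes share it was not counted. The log2 fold change against control was 0.57 at 7D 0 mg/kg (adjusted p = 0.00579), 1.02 at 7D 2 mg/kg (adjusted p = 3.45e-05) and 0.56 at 7D 6 mg/kg (adjusted p = 0.0130), and at 21D it was 0.39, 0.46 and 0.46 (adjusted p = 0.0524, 0.0230 and 0.0259). Without control replicate 4 the call held at 7D 2 mg/kg (log2 0.73, adjusted p = 0.000736) and in no other group (log2 0.10 to 0.28). The call at 7D 6 mg/kg was also lost without its replicate 5 (log2 0.45), and that at 21D 6 mg/kg without its replicate 5 (0.37). With the muscle share as a covariate Tgfbr3 was called in none of the groups (0.77 at 7D 2 mg/kg, adjusted p = 0.171). At 21D 0 mg/kg a call was gained without control replicate 2 (0.47) or replicate 3 (0.57), or without its own replicate 2 (0.44) or replicate 5 (0.43). The within-tendon ratio of Tgfbr3 to Tgfbr2 was lower after repair, by a log2 difference of -0.95 at 7D 0 mg/kg and -1.29 at 21D 0 mg/kg (exact permutation tests, adjusted p = 0.0459 for both). Tgfbr1 to Tgfbr2 did not pass at either time (-0.65 and -0.51, exact permutation tests, adjusted p = 0.247 and 0.496).

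Of the latent TGF-β binding proteins, Ltbp3 and Ltbp2 were called higher in every repaired group and Ltbp1 at 7D. Ltbp3 (ENSRNOG00000020813, chromosome 1), which binds the latent complex, was at 138, 83.0 and 82.8 CPM in control and at 173, 236, 237.5, 256 and 233 CPM at 7D 0 mg/kg. All 27 repaired tendons were at 154 CPM or more, above the highest control. It was 2.24-fold higher at 7D 0 mg/kg (log2 1.17, SE 0.189, adjusted p = 6.35e-06) and 2.00-fold higher at 21D 0 mg/kg (adjusted p = 5.75e-05), with log2 values of 0.93 to 1.31 in the other groups. The call at 7D 6 mg/kg was lost with the muscle share as a covariate (log2 0.96, adjusted p = 0.0991).

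Ltbp1 (ENSRNOG00000033090, chromosome 6), the founding member of the family and a covalent partner of the latent complex, was called at 7D and, with all tendons and no covariate, not at 21D. Control tendons were at 98.0, 114 and 59.1 CPM, the 7D 0 mg/kg tendons at 159, 203, 110, 107 and 128 CPM, and the 21D 0 mg/kg tendons at 117, 85.7, 103, 118 and 95.6 CPM. In 7D 0 mg/kg 2 of the 5 tendons lay inside the control range. Log2 fold changes were 0.65, 0.81 and 0.60 at 7D (adjusted p = 0.00575, 0.00139 and 0.0179 at 0, 2 and 6 mg/kg) and 0.20, 0.32 and 0.35 at 21D (adjusted p = 0.370, 0.157 and 0.120). A call in one and not in the other is no test of the difference, which is given with the time points below. Without control replicate 4 Ltbp1 was called at 7D 2 mg/kg alone (log2 0.53, adjusted p = 0.0329), with 0.36 at 7D 0 mg/kg and 0.34 at 7D 6 mg/kg. The 7D 6 mg/kg call was also lost without its replicate 1 (0.52), and calls at 21D 2 mg/kg (0.56) and 21D 6 mg/kg (0.57) were gained without control replicate 3. Ltbp1 was also called in those 2 groups with the muscle share as a covariate (0.54 and 0.57, adjusted p = 0.0332 and 0.0276), and in all 3 21D groups with library size alone (0.72, 0.80 and 0.81 at 0, 2 and 6 mg/kg).

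Ltbp2 (ENSRNOG00000012094, chromosome 6), a fibrillin-associated protein that, unlike its relatives, does not bind latent TGF-β, had the highest log2 fold change of the 3 in each 21D group. Its levels were 24.3, 15.1 and 8.90 CPM in control, 23.7, 42.3, 51.5, 53.7 and 43.0 CPM at 7D 0 mg/kg, and 66.9, 59.4, 125, 116 and 53.0 CPM at 21D 0 mg/kg. The 21D group lay above control in all 5 tendons, which held for 25% of all genes, whereas 7D 0 mg/kg replicate 1 overlapped control. Ltbp2 was 2.65-fold higher at 7D 0 mg/kg (log2 1.40, SE 0.383, adjusted p = 0.00215) and 5.20-fold higher at 21D 0 mg/kg (log2 2.38, adjusted p = 1.62e-05). The calls at 7D 2 and 6 mg/kg (log2 1.14 and 1.30) were lost without control replicate 4 (0.81 and 0.98, adjusted p = 0.0986 and 0.0598), and the latter also without 7D 6 mg/kg replicate 4 (0.80). Both were lost too with the muscle share as a covariate (0.997 and 1.15, adjusted p = 0.431 and 0.342). The log2 ratio of Ltbp2 to Ltbp3 in the same tendon was higher at 21D 0 mg/kg than in control by 1.40 and than at 7D 0 mg/kg by 1.12 (exact permutation tests, adjusted p = 0.0459 for both). At 7D 0 mg/kg it differed from control by 0.27 (exact permutation test, adjusted p = 0.300). Ltbp1 to Ltbp3 passed in none of the 3 comparisons (exact permutation tests, adjusted p = 0.276, 0.143 and 0.496).

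**Figure D4:**
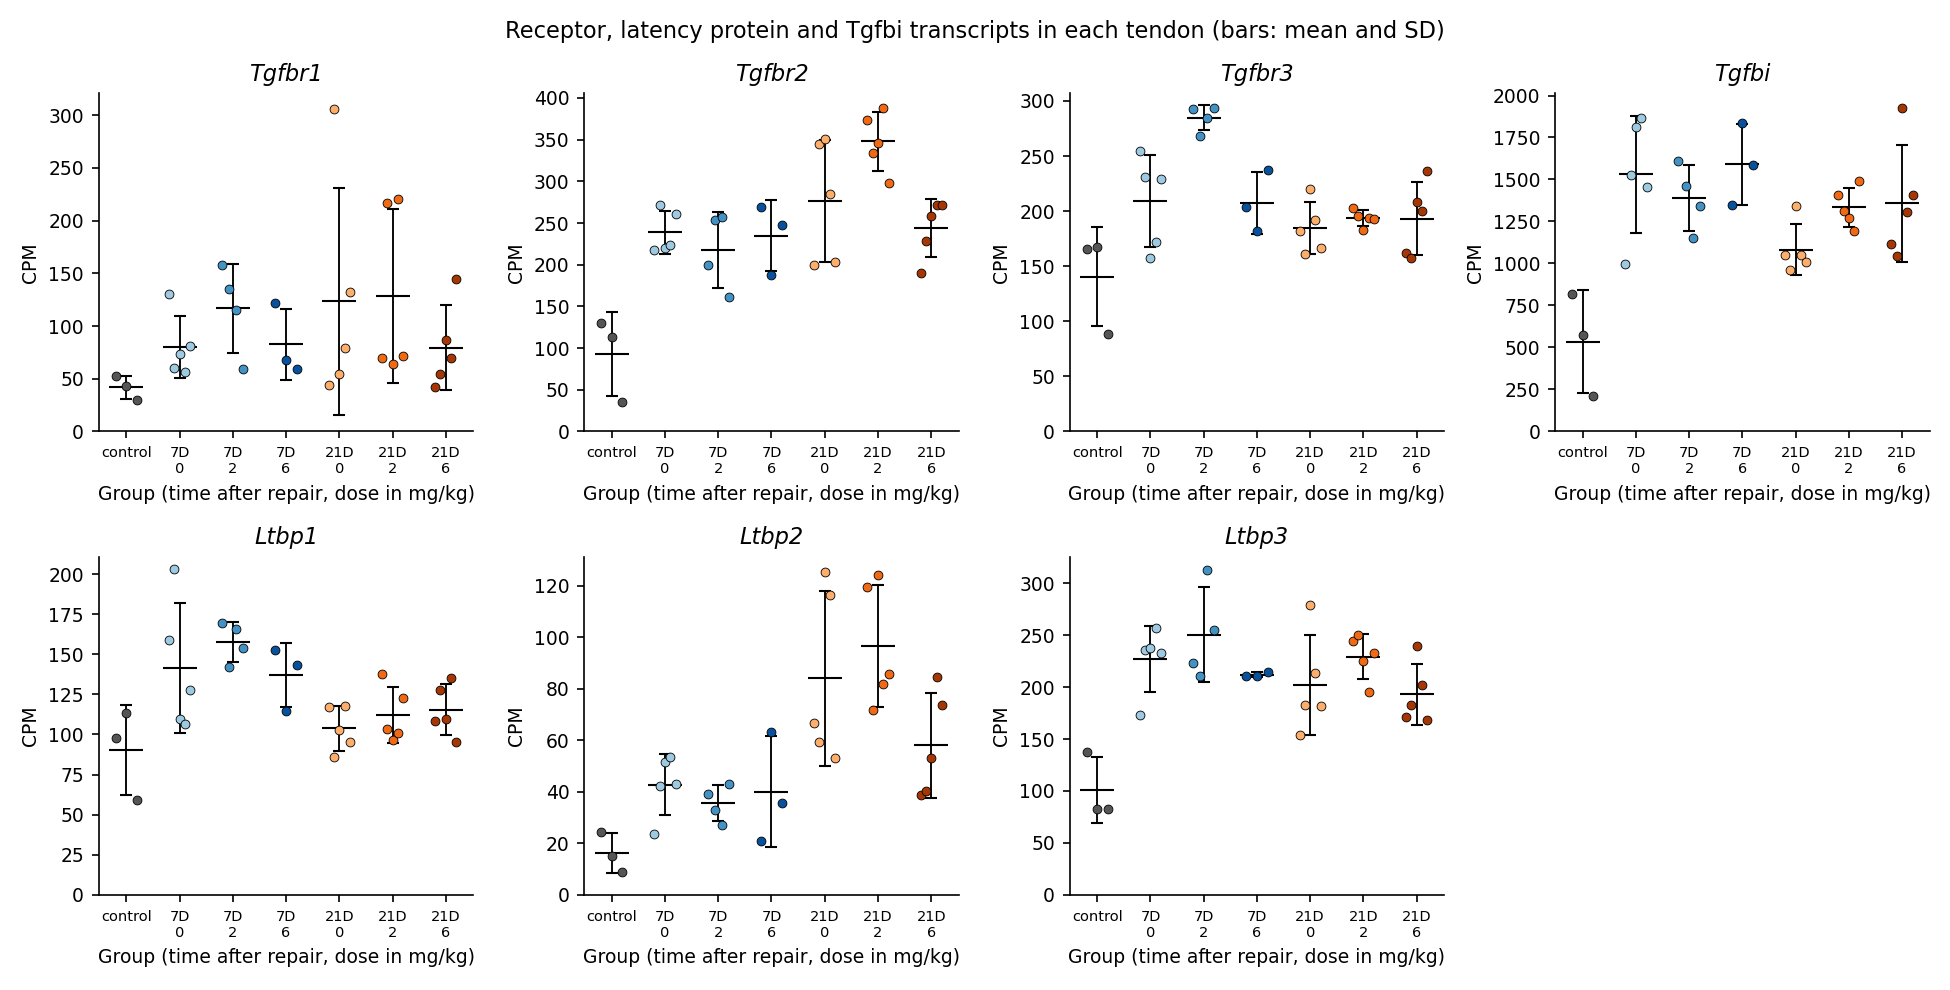
CPM of the receptors, the latent TGF-β binding proteins and Tgfbi in each tendon (points), with group means and SD. Tgfbr2, Ltbp3 and Tgfbi lie above all controls in the 27 repaired tendons, and Tgfbr1 has single tendons of up to 306 CPM at 21D.

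Tgfbi (ENSRNOG00000012216, chromosome 17) encodes a secreted protein that binds collagens and integrins. It was at 821, 574 and 209 CPM in control tendons, at 994, 1524, 1814, 1867 and 1456 CPM at 7D 0 mg/kg, and at 1051, 958, 1343, 1049 and 1010 CPM at 21D 0 mg/kg. All 27 repaired tendons, from 958 to 1926 CPM, exceeded the 3 controls, which ran from 209 to 821 CPM. Tgfbi was 2.86-fold higher at 7D 0 mg/kg (log2 1.52, SE 0.286, adjusted p = 4.63e-05) and 2.02-fold higher at 21D 0 mg/kg (log2 1.02, adjusted p = 0.00264). At 21D 0 mg/kg the log2 value without control replicate 4 was 0.59 (adjusted p = 0.0291), and the call was lost with only those 2 groups in the fit (1.04, adjusted p = 0.0621). With the muscle share as a covariate the calls at 7D 2 and 6 mg/kg were lost (log2 0.91 and 1.12, adjusted p = 0.300 and 0.189).

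Between 7D and 21D the members called were Tgfb3, higher at 2 and 6 mg/kg, and at 2 mg/kg alone Ltbp2, higher, and Tgfbr3, lower. With each tendon left out in turn, Tgfbr3 had log2 values of -0.27 to -0.10 at 0 mg/kg and -0.19 to 0.003 at 6 mg/kg. Ltbp2 had 0.24 to 1.04 at 6 mg/kg, and none of these passed (lowest adjusted p = 0.361, 0.518 and 0.124, edgeR). At 0 mg/kg no member passed the adjusted threshold in edgeR, where 2.88% of all genes were called higher and 2.47% lower. There 4 of the 10 members had an unadjusted p under 0.05: Tgfb3 (log2 0.66, adjusted p = 0.0525), Ltbp2 (0.98, adjusted p = 0.0632), Ltbp1 (-0.44, adjusted p = 0.109) and Tgfbi (-0.50, adjusted p = 0.192). Over all genes 2981 of the 12558 tested had one. Without 21D 0 mg/kg replicate 2 both Tgfb3 (0.79, adjusted p = 0.0122) and Ltbp2 (1.08, adjusted p = 0.0350) passed, and DESeq2 called the same genes with all tendons (adjusted p = 0.0142 and 0.0185). Over all genes these fits called 1411 of 12556 and 1496 of 12558 in either direction. Replicate 2 had the lowest Tgfb3 (116 CPM) and the lowest muscle share of its group.

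At 2 mg/kg Tgfb3 and Ltbp2 were called higher at 21D (7.09% of all genes) and Tgfbr3 lower (5.98%). Tgfb3 went from 160, 115, 141 and 119 CPM at 7D to 213, 215, 246, 202 and 279 CPM at 21D, with no overlap, which held for 11.3% of all genes (log2 0.79, adjusted p = 0.0156). Ltbp2 went from 39.3, 33.1, 27.3 and 43.1 CPM to 119, 71.6, 124, 81.8 and 85.9 CPM, again without overlap (log2 1.44, adjusted p = 0.00618). Tgfbr3 fell from its 7D levels of 269 to 293 CPM to 182 to 203 CPM at 21D, a separation that 5.93% of all genes shared (log2 -0.56, adjusted p = 0.0209). The Tgfb3 call was lost without 7D 2 mg/kg replicate 3 (0.72) or replicate 5 (0.74), and the Tgfbr3 call without 7D 2 mg/kg replicate 5 (-0.54, adjusted p = 0.0567). Muscle transcripts differed between these groups too, at 0.0134% to 0.0159% of counts at 7D and 1.13% to 2.89% at 21D, and with the muscle share as a covariate the 3 calls were lost (log2 0.62, 1.53 and -0.39, adjusted p = 0.249, 0.0753 and 0.331). In that fit Tgfbr1 (2.02), Tgfbr2 (1.23) and Ltbp1 (-0.97) were called instead, among 1756 of the 12558 genes called in either direction.

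At 6 mg/kg Tgfb3 was the only member called (8.54% of all genes higher, 4.55% lower). It was at 121, 145 and 139 CPM at 7D and at 262, 167, 305, 164 and 232 CPM at 21D, without overlap, as for 10.8% of all genes (log2 0.74, SE 0.236, adjusted p = 0.0377). That call was lost on leaving out any of the 3 tendons of 7D 6 mg/kg (log2 0.67, 0.80 and 0.77 without replicates 1, 4 and 5) or 21D 6 mg/kg replicate 1 (0.68) or replicate 3 (0.61). The log2 value for Tgfb3 was positive at each of the 3 doses, from 0.66 to 0.79, and those for Tgfb1 were -0.17, 0.02 and -0.15 at 0, 2 and 6 mg/kg.

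**Figure D5:**
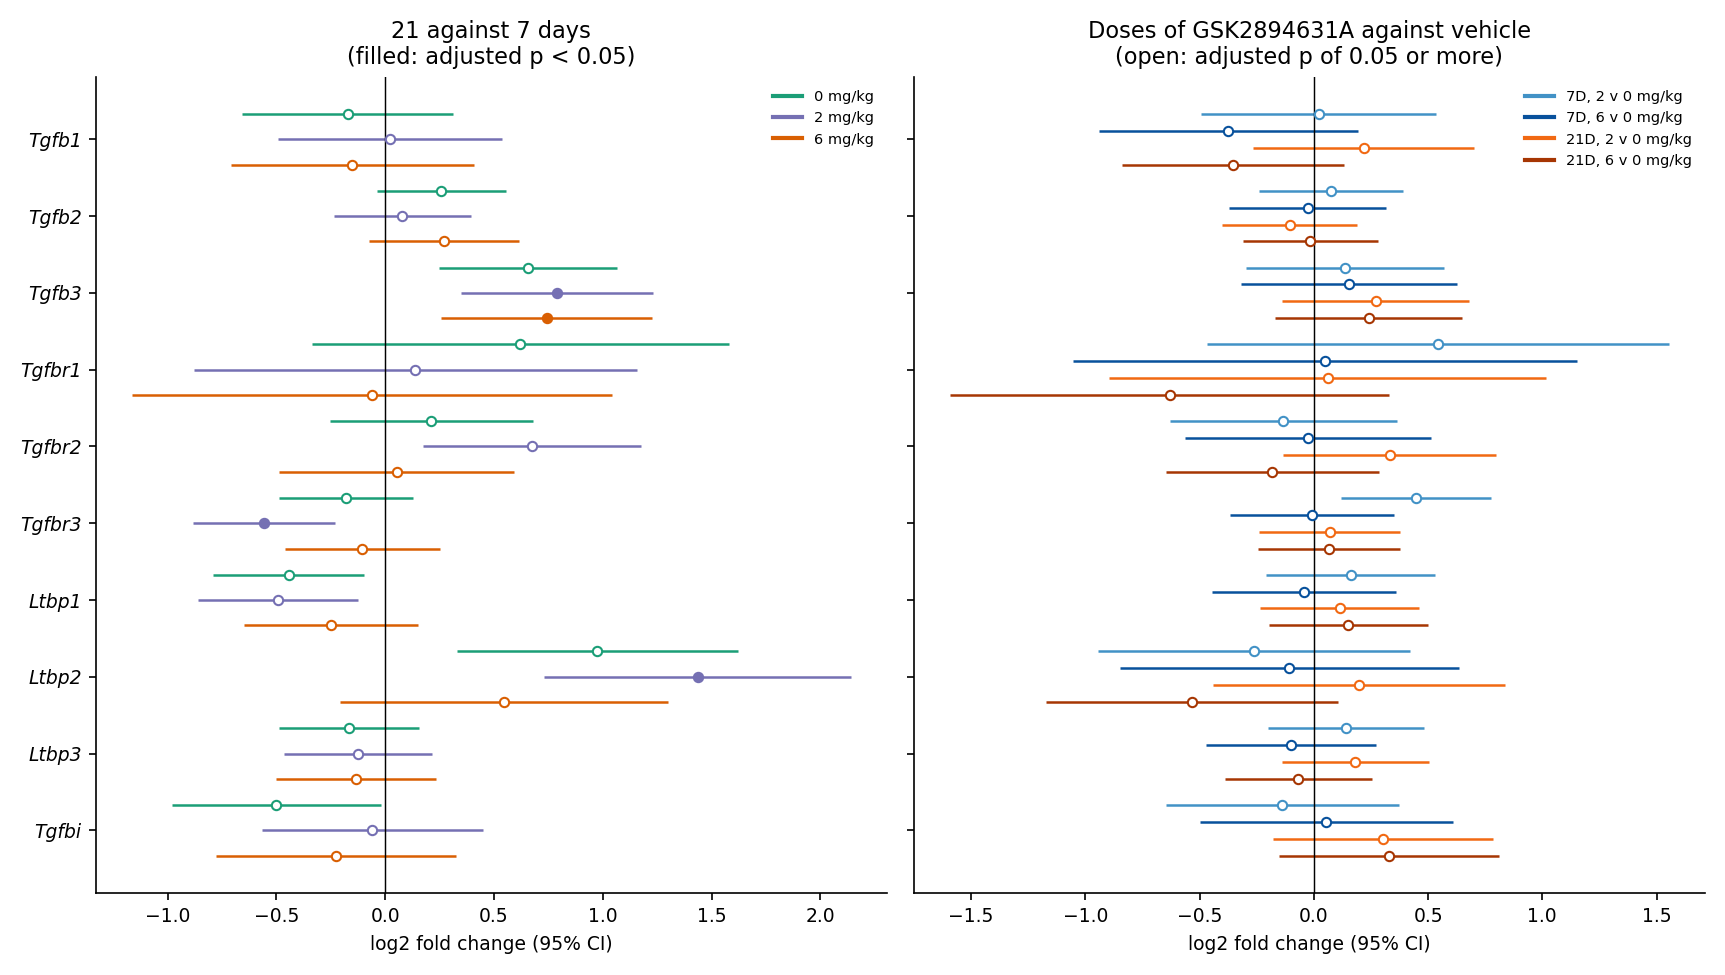
Log2 fold change of each member at 21D against 7D at each dose, and at 2 and 6 against 0 mg/kg at each time, with 95% confidence intervals. Filled points (Tgfb3 at 2 and 6 mg/kg, Ltbp2 and Tgfbr3 at 2 mg/kg, all in the time comparison) passed an FDR-adjusted p of 0.05.

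No member passed a test for an effect of GSK2894631A. In edgeR 0 of 10 members were called at 2 against 0 mg/kg at 7D (2.36% of all genes), at 6 against 0 mg/kg at 7D (0.39%), or in either 21D comparison (0%). DESeq2 also called 0 members in each, and 710, 194, 19 and 1 of the 12558 genes at 7D 2, 7D 6, 21D 2 and 21D 6 mg/kg. The joint tests of the 3 doses called none at 7D (2.05% of all genes) or 21D (0%), nor did the test of whether dose acted differently at the 2 times (0.39%). At an unadjusted p under 0.05 there was 1 member, Tgfbr3, at 2 against 0 mg/kg and in the joint test at 7D, and 0 in the other tests. Of the 12558 genes 1942 and 1576 were under it in those 2 tests. In the others 746 were at 7D 6 mg/kg, 1078 at 21D 2 mg/kg and 810 at 21D 6 mg/kg. The joint test at 21D had 1366, and the test between the times 985. Of the 40 intervals for a member at 2 or 6 against 0 mg/kg, 1 left out 0, that of Tgfbr3 at 7D 2 mg/kg. There the log2 difference was 0.45 (95% interval 0.12 to 0.77, unadjusted p = 0.00923 from edgeR, adjusted p = 0.145). The 4 tendons lay above all 5 of 7D 0 mg/kg (157 to 255 CPM), which held for 2.77% of all genes. The 7D 6 mg/kg tendons, at 203, 182 and 238 CPM, lay inside the range of 7D 0 mg/kg, and the log2 difference was -0.01 (95% interval -0.37 to 0.35).

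A missed threshold does not show that treated and untreated tendons were alike, and the intervals state what these numbers of tendons can tell. For Tgfb2 the 4 intervals lay within -0.40 to 0.39 on the log2 scale, and for Ltbp3 within -0.47 to 0.50. Tgfb1 differed by 0.02 (95% interval -0.49 to 0.54) at 7D 2 mg/kg, -0.37 (-0.94 to 0.19) at 7D 6 mg/kg, 0.22 (-0.27 to 0.70) at 21D 2 mg/kg and -0.35 (-0.84 to 0.13) at 21D 6 mg/kg. Tgfbr1 had the widest intervals, reaching from -1.59 to 1.55, so a change of over 2-fold in either direction could not be told from none.

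The rest of the pathway was taken from lists of genes with known roles, 46 of which were tested. The lists too were chosen with earlier results of these data known, so their counts beside all genes are descriptions only. At 7D 0 mg/kg 28 of the 46 were higher and 6 lower than control, and at 21D 0 mg/kg 26 were higher and 5 lower, with a median log2 fold change of 1.09 and 0.74 against 0.05 and 0.03 for all genes. The shares over all genes tested were 35.8% higher and 35.6% lower at 7D 0 mg/kg, the background of the list counts that follow, and 32.2% and 33.7% at 21D 0 mg/kg. Scaling by library size alone moved the split at 7D 0 mg/kg to 37 higher and 5 lower, since it moved the median of all genes to 0.64.

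Of the 17 genes that hold or release latent ligand, 12 were higher and 2 lower at 7D 0 mg/kg (median log2 1.35). The highest was Mmp9, a gelatinase able to release ligand, which was at 0.245 to 0.661 CPM in control, only 3 to 14 reads, and 30.6 to 174 CPM at 7D 0 mg/kg (log2 7.85, adjusted p = 5.07e-05). The lowest was Itgb6, the β subunit of an integrin that activates latent TGF-β, with a log2 value of -5.02 (adjusted p = 6.30e-05). Itgb6 fell from 98.1 to 138 CPM in control to 1.40 to 7.98 CPM, and in the 7D groups given inhibitor it was at 1.71 CPM or less. Muscle transcripts were lowest in the same groups, and with the muscle share as a covariate it was not called (log2 -0.29, adjusted p = 0.736). The other gene called lower was Ltbp4, a further binding protein of the family (log2 -0.86, adjusted p = 0.00105).

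All 3 coreceptors and related genes (Eng, Acvrl1 and Bambi) were called higher at 7D 0 mg/kg. Eng, an accessory receptor of endothelial and activated cells, was the highest (log2 1.07, adjusted p = 0.000126). Bambi, a decoy receptor, was the lowest (0.55, adjusted p = 0.0343) and was not called without control replicate 2 (0.30) or replicate 4 (0.50) or without 7D 0 mg/kg replicate 4 (0.39). Of the 11 genes of SMAD signaling and its feedback, 3 were higher and 3 lower (median log2 0.17), each a smaller share than among all genes. Tgif1, a SMAD corepressor, rose most (1.64, adjusted p = 2.98e-08). The lower genes were Zfyve9, which anchors SMADs at the receptor (-1.82, adjusted p = 2.87e-11), the signal transducer Smad3 (-1.64, adjusted p = 5.41e-08) and the inhibitor Smad7 (-1.10, adjusted p = 6.92e-05). All 3 were also lower in the other 5 repaired groups, as Tgfb2 was.

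Among known targets of the pathway 9 of 12 were called higher at 7D 0 mg/kg (median log2 2.15). Cthrc1, a secreted protein of activated fibroblasts, rose from 7.76 to 14.9 CPM in control to 540 to 1019 CPM (log2 6.11, adjusted p = 6.54e-12). The smallest rise among the called genes was that of Col1a1 (1.14, adjusted p = 0.00390), which was not called with the muscle share as a covariate (0.90, adjusted p = 0.0953). Ctgf, Cdkn2b and Comp did not pass (0.35, 0.43 and -0.15, adjusted p = 0.412, 0.242 and 0.816). Of the 3 small proteoglycans tested, which bind TGF-β in the matrix, Bgn rose (2.07, adjusted p = 1.74e-07), Fmod fell (-1.64, adjusted p = 0.000601) and Dcn did not pass (-0.15). The Fmod call was lost without control replicate 2 (-0.72, adjusted p = 0.0776). Aspn and Col1a2 of these lists were not analysed here.

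Over time 5 of the 46 passed at each dose. At 0 mg/kg 2 rose and 3 fell from 7D to 21D (2.88% and 2.47% of all genes), at 2 mg/kg 5 rose (7.09%), and at 6 mg/kg 4 rose and 1 fell (8.54% and 4.55%). Ltbp4 was higher at 21D at 0, 2 and 6 mg/kg (log2 0.90, 0.64 and 1.22, adjusted p = 0.0103, 0.0412 and 0.00138). The call at 2 mg/kg was lost on leaving out 7 of the 9 tendons in turn (log2 0.51 to 0.71). The calls at 2 and 6 mg/kg were lost with the muscle share as a covariate (0.28 and 0.86, adjusted p = 0.593 and 0.198), and that at 2 mg/kg with the replicate block (adjusted p = 0.0525) and with library size alone (adjusted p = 0.0658). At 2 against 0 mg/kg at 7D 3 genes passed (2.36% of all genes), namely Itgb8 (log2 2.90, adjusted p = 0.0251), Thbs1 (-1.40, adjusted p = 0.0423) and Acta2 (-1.28, adjusted p = 0.0359). DESeq2 called 3 of the 46 genes higher and 6 lower there, and 710 of all 12558 genes. In the other 3 dose comparisons edgeR called 0 of the 46, with 2 genes at 7D 6 mg/kg, 4 at 21D 2 mg/kg and 2 at 21D 6 mg/kg at an unadjusted p under 0.05. Of the 12558 genes tested 746, 1078 and 810 were under it in these comparisons. DESeq2 called 1 of the 46, at 7D 6 mg/kg, where it called 194 of all 12558 genes. Thbs1, an activator of latent ligand, was at 65.1 to 259 CPM at 7D 0 mg/kg and 52.6 to 72.5 CPM at 7D 2 mg/kg. Each of these 3 calls was lost on leaving out several single tendons, with log2 ranges of 2.57 to 3.17 for Itgb8, -1.61 to -1.20 for Thbs1 and -1.43 to -1.10 for Acta2 (6, 7 and 6 of the 9 tendons). With the muscle share as a covariate Itgb8 (1.53, adjusted p = 0.285) and Acta2 (-1.07, adjusted p = 0.117) were not called, and Thbs1 was not called with the replicate block (adjusted p = 0.0508) or with only those 2 groups in the fit (adjusted p = 0.0707).

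The genes whose group means ran closest to those of each ligand were ranked by the root mean square difference of mean log2 CPM, centred over the 7 groups of the 30 tendons. For Tgfb1 they were LOC100360087 (0.0688), Nfkbie (0.0780) and Gch1 (0.0790). Those closest to Tgfb2 were Ndufb4 (0.0321), Psmd11 (0.0379) and Ndufa8 (0.0393), which like Tgfb2 were high in control and low in all repaired groups. For Tgfb3 they were Zeb1 (0.0721), Igfbp6 (0.113) and Aqp1 (0.115), a looser likeness. These are descriptions over 7 means that share one contrast between control and repair.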

How the data were processed

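The authors counted reads in the exons of genes and deposited the raw counts per gene. Per the study's methods, RNA of right plantaris tendons was made into TruSeq libraries and sequenced as single reads of 50 bases. Reads were trimmed with fastp and mapped with STAR to rn6, with Ensembl release 95, and libraries were removed on quality before deposit. The submitters' processing notes also name FastQC and edgeR, without versions. Whether counting used strand is not given in the sources used here, so reads of overlapping genes cannot be told apart. A second deposited table holds the authors' own edgeR comparisons, which were not used. No lengths of transcripts were used, so levels were not compared between genes.

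Groups and replicate numbers followed the labels, which give 3 tendons for 7D 6 mg/kg, although the removals named in the study's methods would leave 4. Each sample was a tendon of a separate rat. No pair of libraries in a group agreed within sampling noise (smallest chi-square per gene 29.9). Genes with a mean of 3 CPM in at least 1 group were kept, which removed 566 of 13124 genes. A single model of group means over all 30 tendons was fitted with edgeR 4.0.16 (quasi-likelihood, TMM normalization) in R 4.3.3, and p-values were adjusted over the 12558 genes by the Benjamini-Hochberg method. CPM values are counts scaled to a common size of the TMM-adjusted library. Ratios of the counts of 2 members, with 0.5 reads added, were compared by two-sided exact permutation tests, adjusted over 18 tests. The fit was tested on simulated data. The level that 3 reads stand for covers counting error only.

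All 10 members are named, and of each pathway list the called genes with the highest and lowest log2 fold change at 7D 0 mg/kg. Other pathway genes were named after their values were seen. The members and lists were chosen with earlier results of these data known. Alternatives were RLE size factors, library size alone, no expression filter, muscle marker genes left out of the counts, DESeq2 1.42.0, a replicate block, the muscle share as a covariate, a fit restricted to the tendons of each comparison, a fold of at least 1.5, 2 reads added to ratios, the doses pooled, and each tendon left out in turn.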

Additional observations from a re-analysis of the deposited data

Results flagged for a closer look

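In groups of 4 or 5 tendons, 80 sets of values were searched for a single tendon far from the others, and 3 were found, where chance gives about 1 in 20 sets. Ltbp3 at 7D 0 mg/kg was 173 CPM in replicate 1, below the other 4 tendons, in a group that reached 256 CPM (gap over range 0.719). Tgfbi at 21D 0 mg/kg was 1343 CPM in replicate 3, above the other 4, in a group that began at 958 CPM (0.758). The log2 ratio of Ltbp2 to Ltbp3 at 7D 2 mg/kg was -3.52 in replicate 4, below the other 3 tendons, in a group that reached -2.50 (0.835).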

How the results depend on the processing

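Over the alternatives other than leaving out a tendon, 1220 of 1280 tests of a member kept their direction and their side of the threshold, 36 lost a call, 23 gained one and 1 reversed. Over single tendons left out, 1588 of 1630 were kept, 34 lost and 8 gained. Most of the tests in both counts had no call to lose, among them all tests of dose. The shares kept therefore do not measure how stable the calls were. With the muscle share as a covariate Tgfbr1 at 7D 2 mg/kg against control reversed to -1.40, and the log2 values of 21D against 7D reversed for Itgb6 at 2 mg/kg (-2.54) and 6 mg/kg (-0.16), Zfyve9 at 6 mg/kg (-0.12) and Smad3 at 6 mg/kg (-0.22). That covariate left 2 members called higher than control at 7D 2 mg/kg, 1 at 7D 6 mg/kg, and 0 for 21D against 7D at 6 mg/kg. Over all 12558 genes it left 1722, 1854 and 247 called in these comparisons, in either direction. A fit restricted to the tendons of each comparison has fewer samples, and there 4 members were higher at 21D 0 mg/kg than in control, 2 were lower at 21D than 7D at 2 mg/kg, and 0 were higher at 6 mg/kg. These fits called 6212 of 12082, 1845 of 12020 and 1208 of 12100 genes in either direction. For 21D against 7D, RLE size factors gave 1 and DESeq2 2 members higher at 0 mg/kg, DESeq2 gave 2 lower at 2 mg/kg, a fold of at least 1.5 gave 0 lower at 2 mg/kg, and library size alone gave 0 higher at 6 mg/kg. Of the 12558 genes, RLE size factors and DESeq2 called 692 and 1496 at 0 mg/kg in either direction. DESeq2 called 2289 at 2 mg/kg, and library size alone 1626 at 6 mg/kg. Library size alone moved the median of all genes against control to 0.51 to 0.64, and Tgfb2 was still called lower (-1.25 to -0.99). Except where given, the cause was not tested.

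With each tendon left out in turn, members called higher than control numbered 4 to 7 at 7D 6 mg/kg and 5 to 9 at 21D 2 mg/kg. For 21D against 7D they numbered 0 to 2 at 0 mg/kg, 1 to 2 higher and 0 to 1 lower at 2 mg/kg, and 0 to 1 at 6 mg/kg. The 7 called ratio tests all missed the threshold with any tendon left out. For those against control, the smallest p that fewer tendons allow is larger. For Ltbp2 to Ltbp3 at 21D against 7D the adjusted p was 0.0571 to 0.0804 (exact permutation tests). Their log2 differences stayed within -4.07 to -3.82 and -3.58 to -3.31 for Tgfb2 to Tgfb1 at 7D and 21D, -2.45 to -2.12 for Tgfb3 to Tgfb1 at 7D, -1.14 to -0.66 and -1.48 to -1.004 for Tgfbr3 to Tgfbr2, and 1.15 to 1.53 and 1.01 to 1.23 for Ltbp2 to Ltbp3 against control and against 7D. With the doses pooled, Tgfb3 to Tgfb1 passed at 21D against control (-1.23) and 7D (0.84), Tgfbr3 to Tgfbr2 at 21D against 7D (-0.58), and Ltbp1 to Ltbp3 at 21D against control (-0.73).

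The groups share replicate numbers, and what the numbers stand for is not given in the labels. Deviations from group means correlated at -0.70 to 0.68 (median 0.007) over 76 pairs with the same number, against a median of 0.009 over 307 pairs with different numbers. The correlation was over 0.1 in 29 of the 76 and in 89 of the 307. Whether a number marks a shared batch was not tested. With the replicate block Tgfb3 lost its calls at 21D 0 mg/kg against control (0.55, adjusted p = 0.0609) and at 21D against 7D at 6 mg/kg (0.68, adjusted p = 0.0740), which left 0 members higher there.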
